A study of Caenorhabditis elegans with 2 samples.

Results

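The genes of the heat shock proteins, their J-domain partners and the cytosolic chaperonin were examined for binding of ZTF-25, a zinc finger protein by its name, in the nematode Caenorhabditis elegans. The members were the protein-coding genes whose symbol starts with hsp-, dnj- or cct- followed by a digit, and they numbered 59 of 19973 protein-coding genes in the annotation, 22 of them hsp-, 29 dnj- and 8 cct- genes. Binding was mapped by chromatin immunoprecipitation and sequencing (ChIP-seq) with an antibody against GFP. The worms were of strain RW12287, in which the endogenous ztf-25 gene carries an inserted TY1, EGFP and 3xFLAG tag made with CRISPR. Whole young adults were taken at 63 hours, and their growth had been brought into step by bleaching and by starving the first-stage larvae. There were 2 samples, biological replicates 1 and 2 of 1 group, all animals carried the tag, and no worms without the tag and no heat-shocked worms were analysed here. Since whole animals were used, weak binding in many cells and strong binding in a few cells cannot be told apart.

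Heat shock proteins and chaperonins hold unfolded proteins, help them fold and keep them from clumping. J-domain proteins bring unfolded clients to HSP70 proteins and stimulate their ATPase, and the chaperonin CCT (also called TRiC) is a ring of cct gene products that folds actin, tubulin and other cytosolic proteins. Some of these genes are expressed in unstressed cells throughout life, while others, such as the hsp-16 genes and hsp-70, are nearly silent until heat or another stress activates the heat shock factor HSF-1. HSF-1 binds heat shock elements, which are alternating GAA and TTC units set 2 bases apart.

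The members fall into 5 classes by what is known of their expression and function. The constitutive core held 12 genes, namely cct-1 to cct-8, hsp-1, hsp-3, hsp-90 and hsp-110. The heat-inducible class held 7 genes, which were hsp-70, hsp-16.2, hsp-16.41 and the duplicated hsp-16.1, hsp-16.11, hsp-16.48 and hsp-16.49. Of the rest, 3 genes of organelle stress responses (hsp-4, hsp-6 and hsp-60), 8 other hsp genes and 29 J-domain genes formed the remaining classes. A gene was called marked when a peak summit, the base of strongest signal in a peak, lay in its window, which reached 1000 bp upstream and 500 bp downstream of each annotated 5′ end. Each peak has a signal, a value set by the authors on a scale that is not stated, which is used here to describe peaks within a list. The irreproducible discovery rate (IDR) scores how poorly a peak's rank repeats between a pair of peak calls, so a low IDR means a peak that repeated well.

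The sequences under 3 of the marked summits are shown because they hold the letters that the motif results turn on, and the stretch between hsp-16.2 and hsp-16.41 is shown because it holds heat shock elements and no marked summit. Coordinates are those of ce11, and the first 3 stretches run 50 bp to either side of the summit on the strand of the gene. For cct-7 (chrV:1871940-1872040, plus strand) the capitals mark a run of 16 bases that also lay within 50 bp of the dnj-28 summit. For dnj-13 (chrII:11545445-11545545, plus strand) and hsp-90 (chrV:14685764-14685864, plus strand) they mark pairs of heat shock element units. For the 220 bp between hsp-16.2 and hsp-16.41 (chrV:1804958-1805177, shown on the plus strand) they mark such pairs as well.
cct-7: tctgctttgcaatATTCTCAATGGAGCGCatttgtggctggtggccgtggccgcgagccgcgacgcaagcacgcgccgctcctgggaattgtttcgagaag
dnj-13: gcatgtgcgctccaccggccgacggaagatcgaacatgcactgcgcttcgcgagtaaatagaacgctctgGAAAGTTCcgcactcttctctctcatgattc
hsp-90: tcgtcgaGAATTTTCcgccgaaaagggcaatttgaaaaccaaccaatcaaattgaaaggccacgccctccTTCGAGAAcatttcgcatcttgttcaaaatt
hsp-16.2 and hsp-16.41: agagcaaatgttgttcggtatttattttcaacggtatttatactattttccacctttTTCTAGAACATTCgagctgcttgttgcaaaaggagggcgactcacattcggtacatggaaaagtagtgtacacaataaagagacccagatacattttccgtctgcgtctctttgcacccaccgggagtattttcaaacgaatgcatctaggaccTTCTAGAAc

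Marked members were found in the constitutive core, among the J-domain genes and, with hsp-60, among the organelle stress genes. The conservative list, which keeps peaks whose ranks repeated between both libraries, held 1092 peaks and marked 9 of the 59 members (15.3%), against 561 of all 19973 protein-coding genes (2.81%). They were dnj-28, cct-7, dnj-13, hsp-90, hsp-60, cct-8, hsp-1, dnj-9 and dnj-12. The other thresholded list made from both libraries, called the combined list here, held 1368 peaks and marked 10 members (16.9%), against 3.62% of all genes, and the added gene was hsp-110. With 1 group of samples there was no condition to test, and the shares stand as descriptions.

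The constitutive core had 4 of 12 genes marked in the conservative list (33.3%), against 0 of 7 heat-inducible genes. With 2.81% of all genes marked, 0 of 7 does not set the heat-inducible class apart from genes at large, and 4 of the 7 lie in duplicated sequence. The 4 marked core genes were the chaperonin subunit genes cct-7 and cct-8, hsp-1, which encodes the constitutive cytosolic HSP70, and hsp-90, which encodes the cytosolic HSP90. The organelle stress class had 1 of 3 genes marked, hsp-60, whose product is the mitochondrial chaperonin. The J-domain genes had 4 of 29 marked (13.8%), and the 8 other hsp genes, most of them small heat shock protein genes, had 0 marked.

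The separate lists of the libraries marked fewer members. The list of replicate 1, with 515 peaks, marked 6 members (10.2%), against 1.39% of all genes, and these were cct-7, cct-8, dnj-13, dnj-28, hsp-90 and hsp-110. The list of replicate 2, with 295 peaks, marked 2 members (3.39%), cct-7 and dnj-28, against 0.856% of all genes. Of the constitutive core, 4 of 12 genes were marked in replicate 1 and 1 of 12 in replicate 2, and the heat-inducible class had 0 of 7 in each. In each of the 4 lists the share of members marked was above that of all genes. The lists come from the same 2 libraries and share peaks, so they are not separate observations.

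**Figure D1:**
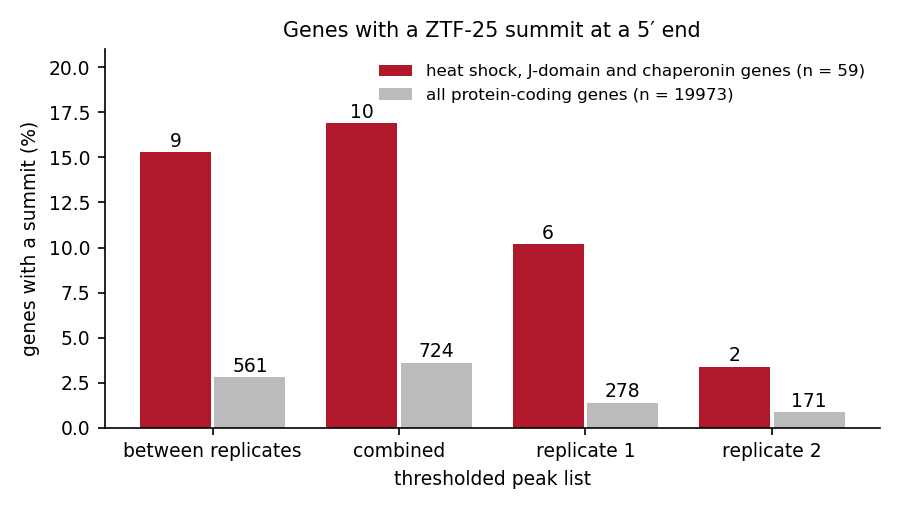
Share of genes with a summit in the window at a 5′ end, in percent (vertical axis), for the 59 heat shock, J-domain and chaperonin genes (red, left) and all 19973 protein-coding genes (grey, right) in each of the 4 thresholded lists. Numbers over the bars are genes. The red bar is the taller of each pair, at 15.3% against 2.81% in the list between replicates and 3.39% against 0.856% in that of replicate 2.

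Among the cytosolic chaperone genes, cct-7 had the strongest peak. It lay 256 bp upstream of the 5′ end (chrV:1871852-1872127) with a signal of 152.2, which was rank 131 of 1092, and an IDR between libraries of 2.80e-04. Its signal was 101 in replicate 1 and 55.7 in replicate 2, and it was in the lists of both. The replicate 1 value was the higher, by 1.81 times, the widest gap between libraries among the 9 peaks.

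The peak of cct-8 (chrIV:1094234-1094509) had a signal of 106.5 and rank 374, and its summit lay 452 bp upstream. Its signals were 58.7 in replicate 1 and 51.5 in replicate 2, which are close to each other. The other 6 cct genes had no summit in any thresholded list. In the ranked list of the comparison between libraries, which keeps 104189 peaks of any IDR, their highest signals ran from 35.0 for cct-3 and 35.9 for cct-6 through 41.6 for cct-1, 42.6 for cct-2 and 48.3 for cct-4 to 63.0 for cct-5, and their IDRs from 0.230 to 0.563.

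The hsp-90 summit lay 346 bp upstream of the inner of the gene's 2 annotated 5′ ends (chrV:14685676-14685951), inside an intron of its longer transcript. Its signal was 120.4, rank 262, with 57.6 in replicate 1 and 68.4 in replicate 2. The summits by which the list of replicate 1 marked hsp-90 were others, 193 and 393 bp downstream, with signals of 37.4 and 2.74. So the call in that list did not rest on the peak of the conservative list.

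The hsp-1 summit lay 103 bp downstream of the 5′ end, in coding sequence of the gene (chrIV:17278924-17279199), and was the only summit of the 9 inside its own gene's coding exons. Its signal was 83.7, rank 760, with 52.5 in replicate 1 and 34.1 in replicate 2. Taken alone, the libraries gave this peak IDRs of 0.156 and 0.801, so neither list of a single library held it. A further hsp-1 peak in the combined list lay 366 bp upstream with a signal of 79.4, and the libraries gave 51.6 in replicate 1 and 23.6 in replicate 2.

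The hsp-110 gene, whose product exchanges the nucleotide of HSP70, was marked in the combined list and in that of replicate 1. Its summit lay 124 bp downstream of the 5′ end in coding sequence, with signals of 57.0 in replicate 1 and 19.3 in replicate 2. The IDR was 0.139 between the libraries and 0.00772 in the combined ranking. The hsp-3 gene, which encodes an endoplasmic reticulum HSP70 of the BiP type, had a signal of 51.2 and an IDR of 0.142 and was marked in no list.

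Of the organelle stress genes, hsp-60 had a summit 596 bp upstream (chrIII:1619008-1619283), the farthest of the 9. Its signal was 108.5, rank 350, with 60.7 in replicate 1 and 48.5 in replicate 2. The hsp-6 gene, for the mitochondrial HSP70, had a signal of 64.1 (IDR 0.0832), and hsp-4, for the stress-induced BiP, had 62.8 (IDR 0.0564). Both values lay above the upper quartile of all genes, 44.8, without passing the threshold of the conservative list.

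The J-domain gene dnj-28 had the strongest peak of all members. Its signal of 272.6 was rank 15 of 1092, and the libraries gave 137 and 139, the closest agreement in proportion among the 9. The summit lay 125 bp upstream (chrI:2996323-2996446), and at 124 bp this peak was the narrowest of the 9, the other 8 being 276 bp wide. Its IDR was 1.51e-05 between libraries, and within each of them it was at 1.00e-05, the lowest value the ranked lists hold.

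The next J-domain gene, dnj-13, which encodes a cytosolic partner of HSP70 of the DNAJB1 type, had a summit 206 bp upstream (chrII:11545357-11545632) in an intron of dhgd-1. The signal was 134.4, rank 195, with 73.1 in replicate 1 and 63.1 in replicate 2. The dnj-9 summit lay 286 bp upstream (chrII:4851632-4851907), with a signal of 83.5, 37.1 in replicate 1 and 49.3 in replicate 2. The dnj-12 summit, at a gene for a DNAJA1-type partner of HSP70, lay 521 bp upstream (chrI:14756245-14756520), with a signal of 76.8, 35.8 in replicate 1 and 45.6 in replicate 2.

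The dnj-12 peak was the weakest at a marked member, with an IDR of 0.00734. Just outside stood dnj-29, which encodes a SEC63-type protein of the endoplasmic reticulum, with a signal of 74.4 and an IDR of 0.0113. The other 24 unmarked J-domain genes had signals of up to 64.7, the value of dnj-10, which encodes a mitochondrial J-domain protein. Next came dnj-19 with 61.5, dnj-14, for a cysteine string protein of synaptic vesicles, with 59.7, and dnj-2 with 55.2.

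**Figure D2:**
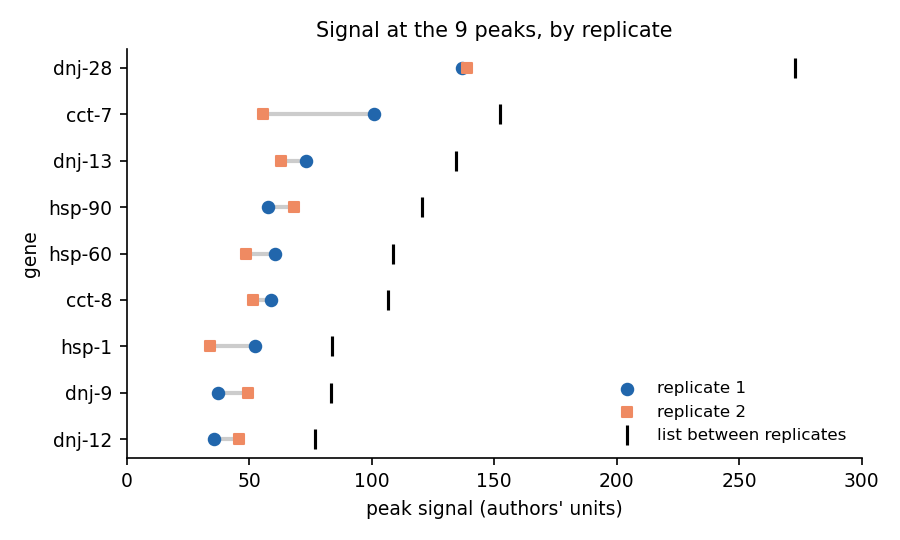
Peak signal in the authors' units (horizontal axis) at the 9 marked members, in replicate 1 (blue circles), in replicate 2 (orange squares) and in the list between replicates (black bars). Replicate 1 was the higher at 5 peaks and replicate 2 at 4, and dnj-28 had 137 and 139 in the libraries.

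Across the 9 peaks neither library was consistently the higher. Replicate 1 gave the larger signal at 5 and replicate 2 at 4, with replicate 1 to replicate 2 ratios from 0.753 to 1.81. The median signal of the 9 was 108, and 6 of them stood above the median of all 1092 peaks, 93.9. Over all members, 45 had a peak of any IDR in both libraries, 6 in replicate 1 alone, 3 in replicate 2 alone and 5 in neither. Among the 45, Spearman's rho between the libraries' highest signals was 0.563, against 0.351 over 9536 such genes in all. These are descriptions across genes, and the libraries share a strain and a protocol.

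Of the 7 heat-inducible genes, 3 had a peak in the ranked list between libraries and 4 had none. In the ranked list between libraries, hsp-70, the inducible cytosolic HSP70 gene, had a highest signal of 37.1 (IDR 0.406), with 22.3 in replicate 1 and 14.0 in replicate 2. The divergent genes hsp-16.2 and hsp-16.41, which encode small heat shock proteins, shared 1 peak with a signal of 36.4 (IDR 0.567). Its summit lay 30 bp downstream of the hsp-16.41 start and 251 bp upstream of that of hsp-16.2. The highest signal in the windows of both genes was 26.1 in replicate 1 and 12.4 in replicate 2, at summits that did not coincide. The values of these 3 genes in the list between libraries stood above the median of all genes, 32.6, and below the upper quartile, while in replicate 2 none of the 3 was above the median of 15.1. The genes hsp-16.1, hsp-16.11, hsp-16.48 and hsp-16.49 had no peak in the list between libraries or in the ranked list of either library. In the combined ranked list hsp-16.11 and hsp-16.49 shared 1 peak with a signal of 11.9 and an IDR of 0.726. Its summit lay 456 bp downstream of the hsp-16.49 start. The other 2 genes had no peak in that list either.

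The constitutive core lay higher as a class. Its 12 genes had a median highest signal of 57.1, from 35.0 to 152, while the 7 heat-inducible genes had a median of 0, from 0 to 37.1. That median of 0 rests on the 4 genes without a peak, which lie in duplicated sequence. The other 3 had 36.4 to 37.1, above the median of all genes, 32.6, and hsp-16.2 and hsp-16.41 share 1 peak. All 12 core genes were above the median of all genes and 8 of them above its upper quartile, against 3 and 0 of the heat-inducible genes. The lowest core gene, cct-3 at 35.0, was below the 3 heat-inducible genes with a peak, so the classes overlapped. The medians of the core and heat-inducible classes were 39.5 and 0 in replicate 1 and 22.7 and 0 in replicate 2. In the combined ranked list they were 57.1 and 11.9, with a peak at 5 of the 7 heat-inducible genes. That 11.9 is the peak shared by hsp-16.11 and hsp-16.49, and hsp-16.2 and hsp-16.41 shared 1 peak there too.

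Of the other classes, the 3 organelle stress genes had a median of 64.1, above the core, the J-domain genes had 40.7 and the other hsp genes 34.6. Among the other hsp genes the small heat shock protein gene hsp-25 was highest at 46.2, and the mitochondrial HSP90 gene hsp-75 was the lowest of those with a peak, at 26.0. All 59 members together had a median of 40.7, against 32.6 for all genes, and 42 of them (71.2%) stood above the median of all genes. The members' median was above that of all genes in each library, at 24.9 against 18.6 in replicate 1 and at 19.7 against 15.1 in replicate 2.

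At most genes, members and others, the best peak, taken as the one with the highest signal, repeated poorly. The best peak of 35 members (59.3%) had an IDR above 0.1, against 72.5% of all genes, that of 6 members (10.2%) had an IDR above 0.01 and up to 0.1, against 7.50% of all genes, and 9 members (15.3%) had no peak, against 17.2%. In the combined ranked list 4 members (6.78%) had no peak, against 14.4% of all genes. The 9 without a peak in the list between libraries were hsp-16.1, hsp-16.11, hsp-16.48, hsp-16.49, the small heat shock protein gene hsp-12.1, and dnj-7, dnj-17, dnj-26 and dnj-30. Of these, only dnj-17 had a peak in the ranked lists of both single libraries, with signals of 20.0 in replicate 1 and 22.3 in replicate 2 at different places in its window.

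**Figure D3:**
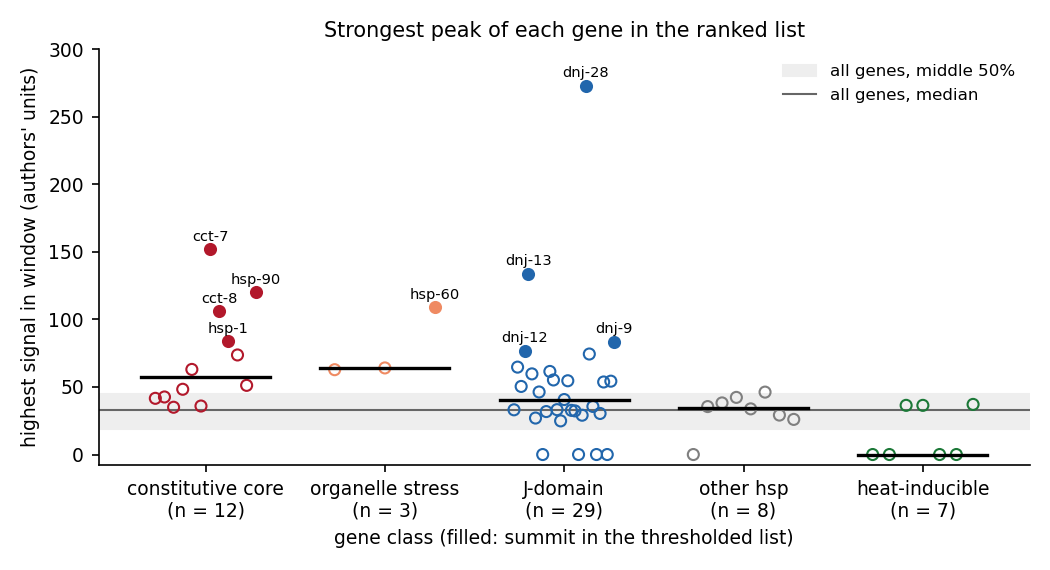
Highest signal in the window of each gene in the ranked list between libraries, in the authors' units (vertical axis), by class, with class medians as black lines and marked genes filled and named. The grey band and line show the middle 50% (19.0 to 44.8) and median (32.6) of all protein-coding genes. The constitutive core had a median of 57.1 and the heat-inducible class of 0. The 4 heat-inducible genes without a peak lie in duplicated sequence.

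The missing peaks at 4 of the 7 heat-inducible genes in the list between libraries went with repeated sequence. The hsp-16.1 and hsp-16.48 genes on chromosome V are present again in an inverted copy that holds hsp-16.49 and hsp-16.11. The copies, at 9087293 to 9088617 and at 9089280 to 9090604, were identical over all 1325 bases. Of the words of 31 bases in their windows, the share that occurs once in the genome was 2.79% for hsp-16.1, 5.37% for hsp-16.11 and 0 for hsp-16.48 and hsp-16.49. It was 97.7% for hsp-16.2, 95.9% for hsp-16.41 and 100% for hsp-70. No source used here gives the read length or the handling of reads with several matches, and the part of repeated sequence in the missing peaks was not tested. Leaving these 4 genes out, 0 of 3 heat-inducible genes were marked, with signals of 36.4 to 37.1.

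Among all members, 7 (11.9%) had a share of such words below 80%, against 8.80% of all genes. Of the 7, the duplicated hsp-16 genes and dnj-30 had no peak in the list between libraries. The others, dnj-1 and cct-3, had signals of 33.1 and 35.0. The remaining members without a peak there, hsp-12.1, dnj-7, dnj-17 and dnj-26, had a share of 100%. None of the 9 marked members was among the 7, and the lowest of them was dnj-28 at 83.7%. The marked share of all genes below 80% was not counted, so nothing is drawn from this.

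**Figure D4:**
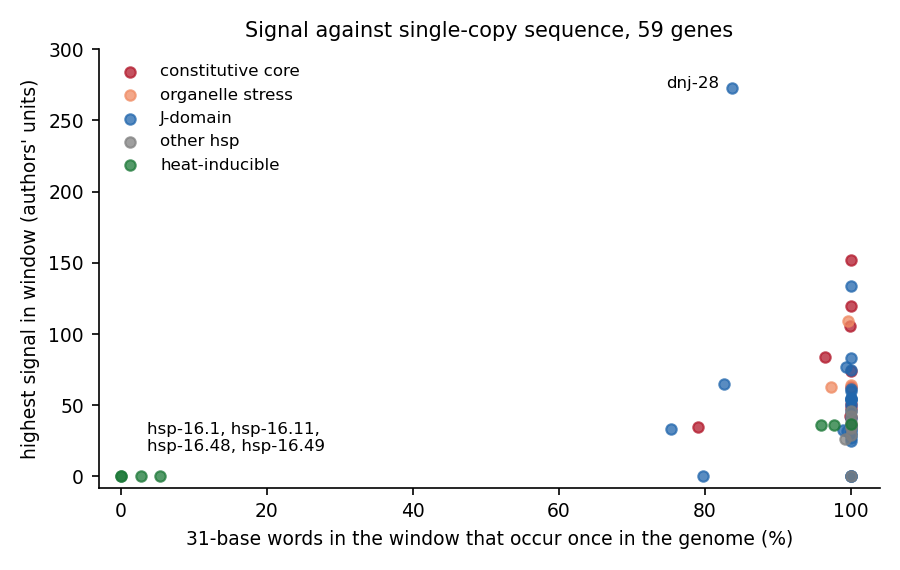
Highest signal in the ranked list between libraries, in the authors' units (vertical axis), against the share of 31-base words in the window that occur once in the genome, in percent (horizontal axis), for the 59 members coloured by class. The 4 duplicated hsp-16 genes sit at 0 to 5.37% with no peak, and the 3 other heat-inducible genes sit at 95.9 to 100% with signals of 36.4 to 37.1.

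The marked summits lay mostly upstream of the member and mostly in the window of a further gene as well. Of the 9, 8 lay upstream of the member's 5′ end, the median position of all 9 was 286 bp upstream, and 5 were intergenic. Relative to the nearest 5′ end 7 of the 9 lay upstream, against 346 of all 463 peaks in windows (74.7%). At 7 of the 9 the summit was also in the window of a gene on the opposite strand, while 132 of the 463 (28.5%) were in the windows of 2 or more genes. These neighbours were supr-1 for dnj-28, T10B5.4 for cct-7, F54D5.9 for dnj-13, C47E8.4 for hsp-90, Y22D7AL.10 for hsp-60, Y55F3AR.2 for cct-8 and mtx-1, a metaxin gene of mitochondrial protein import, for dnj-12. A peak there cannot be assigned to either gene from its position.

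At 5 of the 9 the neighbour's 5′ end was the nearer. The cct-7 summit lay 183 bp from T10B5.4, against 256 bp from cct-7, and that of cct-8 lay 169 bp from Y55F3AR.2, against 452 bp from cct-8. The hsp-60 summit lay 217 bp from Y22D7AL.10, against 596 bp from hsp-60. For hsp-90 the distances were nearly equal, 329 bp to C47E8.4 and 346 bp to hsp-90. The dnj-12 summit lay only 29 bp inside the start of mtx-1, in its 5′ UTR. Only dnj-28, dnj-13, dnj-9 and hsp-1 were the nearest gene to their summit.

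Head-to-head neighbours were common among the members as a whole. A protein-coding 5′ end on the opposite strand lay within 1000 bp upstream at 29 of 59 members (49.2%), against 18.7% of all genes. Among the 29 were hsp-16.2 with hsp-16.41, hsp-16.1 with hsp-16.48 and hsp-16.49 with hsp-16.11, members that face each other. The latter pairs lie in identical copies and were counted separately, and none of these genes was marked. Of those 29 members 7 were marked (24.1%), against 5.04% of all head-to-head genes. Of the other 30 members 2 were marked (6.67%), against 2.30% of all other genes. The marked share of members was above that of all genes in both arrangements, though in the second it rests on 2 genes. The part of gene arrangement in the counts was not tested.

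**Figure D5:**
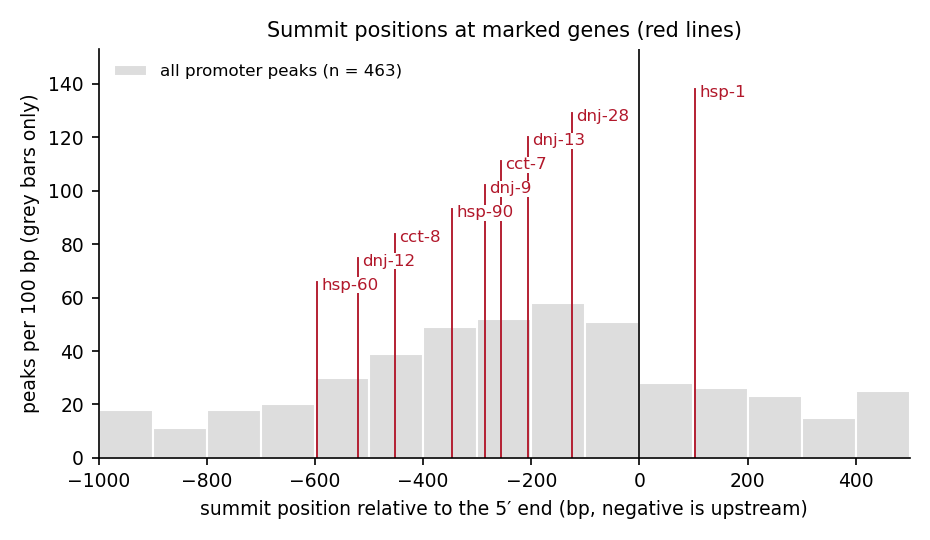
Position of the summit relative to the member's 5′ end in bp (horizontal axis, negative is upstream) for the 9 marked members (red lines, whose heights carry no value). Grey bars give the number of all 463 peaks in windows per 100 bp, relative to the nearest 5′ end in whose window they lie. Of the 9 summits 8 lay upstream, from 125 to 596 bp, and that of hsp-1 lay 103 bp downstream.

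The base composition and motifs under the 9 summits were then described. Within 50 bp of the summit the share of G and C ran from 34.7% to 59.4% with a median of 52.5%, against a median of 49.5% at all 1092 peaks. The words GGTTCGA and GTGGTTA, read on both strands, are found in or beside the internal promoter boxes of transfer RNA genes. They were at 0 of the 9 summits, against 179 and 93 of all 1092 peaks. No gene of a transfer, small nucleolar, small nuclear or ribosomal RNA lay within 200 bp of any of the 9. Over all genes, 441 of the 561 marked genes were still marked with peaks near such genes left out. Genes annotated as other noncoding RNA lay within 200 bp of 3 of the 9 summits, those of cct-7, dnj-13 and cct-8. Their share over all peaks was not counted.

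The word GGAGCGC lay within 50 bp of 3 of the 9 summits, those of dnj-28, cct-7 and dnj-13, against 38 of all 1092 peaks (3.48%). It forms the end of the 16-base run that dnj-28 and cct-7 share. Among the 36 pairs of member summits the next longest shared run was 10 bases and the median 7.0. The run occurs 29 times in the genome and under 2 of the 1092 peaks, these same 2. The word and the run were picked after the sequences had been seen, so their counts support nothing.

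Heat shock elements were commoner in the promoters of the members than in those of all genes, and a run of 3 units lay under 1 of the 9 peaks. A run of 3 alternating units, read on both strands from 250 bp upstream to 50 bp downstream of a 5′ end, was present at 12 of 59 members (20.3%), against 500 of all genes (2.50%). The 12 were all 7 heat-inducible genes, the core genes hsp-1, hsp-3, hsp-90 and hsp-110, and dnj-12, with the duplicated hsp-16 genes sharing 1 promoter sequence in identical copies. Within 138 bp of a summit such a run was present at 1 of the 9 marked members, hsp-60, against 28 of 1092 peaks (2.56%). The hsp-60 run had its middle 95 bp from the summit, and the nearest to the hsp-90, dnj-12, hsp-1 and dnj-13 summits lay 905, 482, 241 and 197 bp away, with 678 bp for dnj-28. At cct-7, cct-8 and dnj-9 the nearest was farther still, at 3706, 3281 and 3192 bp. The median distance of the 9 summits was 678 bp, against 5056 bp at all 1092 peaks. The 9 were picked for lying near 5′ ends of members, where such runs are commoner, while only 463 of the 1092 lay in any window. The choice of genes thus favours a shorter distance, and nothing about ZTF-25 binding is drawn from it.

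Pairs of units were commoner, as shorter motifs are. GAANNTTC was in the promoters of 29 of 59 members (49.2%), against 22.6% of all genes, and TTCNNGAA in 23 (39.0%), against 23.2%. These motifs each read the same on both strands, and they overlap in a run of 3 units. Within 50 bp of the summit each was present at 2 of the 9 marked members, GAANNTTC at dnj-13 and hsp-90, and TTCNNGAA at cct-7 and hsp-90, against 5.13% and 4.76% of all peaks. Within 138 bp GAANNTTC was present at 5 of the 9, those of cct-7, dnj-13, hsp-90, hsp-60 and cct-8, against 15.5% of all peaks, and TTCNNGAA at 3, those of cct-7, hsp-90 and hsp-60, against 14.3%. In the hsp-90 stretch printed above, both occur. Finding these letters describes the sequence and does not show that HSF-1 binds there.

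Regulators and partners of the chaperones were counted from a list of 20 genes. The conservative list marked 3 of them, against 2.81% of all genes, namely bag-1, which encodes a nucleotide exchange factor of HSP70 (signal 141), ahsa-1, which encodes an activator of HSP90 (106), and enpl-1, which encodes the HSP90 of the endoplasmic reticulum (77.8). The combined list marked 3 (all genes 3.62%), that of replicate 1 marked 2 (all genes 1.39%) and that of replicate 2 marked 1 (all genes 0.856%). The heat shock factor gene hsf-1 was not marked and had a signal of 26.2 with an IDR of 0.761, below the median of all genes. The 6 prefoldin genes, whose products hand clients to the chaperonin, were not marked and ranged from 36.9 for pfd-4 to 66.5 for pfd-6. The list as a whole had a median signal of 42.6, against 32.6 for all genes.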

How the data were processed

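ChIP-seq peaks of 2 samples were deposited as 8 lists on ce11, of which 4 are ranked by IDR and 4 thresholded. The authors derived the lists from alignments and a control file, per the deposited README texts. The signal of each peak was used as the authors deposited it. The ranked lists give the −log10 of the IDR as deposited, which was turned back into an IDR here. No source used here names the aligner, the peak caller, the read length or the depth of the libraries, and the counts carry no intervals.

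Genes came from Ensembl release 115 of WBcel235, the assembly of ce11, and only the 6 nuclear chromosomes were used. Ensembl gives hsp-16.1 and hsp-16.48 each to 2 genes, and RefSeq names for the same WormBase IDs (hsp-16.11, hsp-16.49) were used for the duplicates. Sequences came from the RefSeq genome of that assembly. Where a gene had several 5′ ends, the union of its windows was used. A summit is the peak start plus the deposited summit offset. Genes without a peak were given a signal of 0. Members, classes, lists and motifs were chosen with earlier results of these data known. Named genes were all marked, heat-inducible and core members, hsp-4, hsp-6 and hsp-60, the 5 other members with the highest and the 5 with the lowest ranked signal, and the gene nearest to each summit. Further genes that are named (dnj-1, hsp-25, hsp-75, supr-1, F54D5.9, dhgd-1, pfd-4 and pfd-6) were chosen after their values were seen. The classes came from known expression and not from these samples. The window counting was tested on simulated peaks. Python 3.11.15, numpy 2.4.6, pandas 2.3.3 and matplotlib 3.10.9 were used.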

Additional observations from a re-analysis of the deposited data

How the results depend on the processing

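The count of marked members was 9 of 59 and fell to 5 at an IDR of 0.001 or lower in the ranked list, against 0.866% of all genes, and was 15 at an IDR of 0.1 or lower, against 10.8%. It was 2 with replicate 1 left out, against 0.856% of all genes, and 6 with replicate 2 left out, against 1.39%. With each peak given only to its nearest 5′ end it was 6, against 4.84% of all genes. In the other settings run over all genes it was 7 to 10, against 1.84% to 3.94%. Of the 52 members outside repeated sequence, 9 were marked, and the marked share of all genes outside it was not counted. The core count was 4 of 12, and ran from 1 to 4 with either replicate left out and from 3 to 5 in the settings not named below. With each peak given only to its nearest 5′ end the core count was 2 and the heat-inducible count 1, through a peak 2337 bp downstream of the hsp-70 start, and the core count included a cct-7 peak 3370 bp downstream. The heat-inducible count was 0 of 7 in the other settings, and 0 of 7 with either replicate left out. With the outermost 5′ end only, hsp-90 was not marked. The median signal of members, 40.7 against 32.6 for all genes, was 35.5 against 22.7 with a window from 500 bp upstream to 250 bp downstream, 48.7 against 38.3 with a window that began 2000 bp upstream, 46.2 against 36.4 with genes without a peak left out, and from 19.7 to 24.9 with either replicate left out, where signals are on the scale of a single library. It was 44.4 for the 52 members outside repeated sequence, against 32.6 for all genes, from which genes in repeated sequence were not left out. That setting was chosen after seeing the data. Members were above all genes in each of these. Apart from fewer peaks or genes by construction, the cause of these changes was not tested. No paired analysis was possible because there is 1 group. The unknown depth limits what the absence of a peak shows, and fewer marked genes in replicate 2 go with fewer peaks in its list.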
